A study of Homo sapiens with 6 samples.

Results

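The genes described here are the mitochondrial ribosomal protein genes, chosen by name as MRPL or MRPS followed by digits, with at most one trailing letter and without pseudogene names. Of 29153 genes listed in the deposited table, 78 met this rule, and all 78 passed the filter on low values (a mean FPKM of at least 0.5 over the 6 libraries) that 13452 genes passed. A further 13 listed genes have similar names, 12 of them pseudogenes and 1 an antisense RNA, and were left out. RNA was sequenced from the human liver cancer cell line HepG2 at 72 h after infection with lentivirus carrying a control hairpin (shNC, 3 libraries) or a hairpin against the long noncoding RNA LINC01977 (shLINC01977, numbered sh3 in the labels, 3 libraries). The control cells therefore also carried a lentivirus and a hairpin. A single hairpin was used, and the labels do not say whether the 3 libraries of a group came from separate cultures, so the p-values measure only the spread between these libraries. The question was which genes change when LINC01977 is targeted.

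Mitochondria have ribosomes of their own, which translate the proteins encoded by the mitochondrial genome, all of them parts of the respiratory chain and ATP synthase. The proteins of these ribosomes are encoded in the nucleus, made in the cytosol and imported, while both ribosomal RNAs, 12S in the small subunit and 16S in the large subunit, are transcribed inside the organelle. The names MRPS and MRPL stand for the small and the large subunit, but some names are historical. MRPS18A and MRPS30 are located in the large subunit, and MRPS36 belongs to the 2-oxoglutarate dehydrogenase complex rather than to a ribosome. By structure, therefore, 26 members belong to the small subunit and 51 to the large subunit.

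Total counts were between 49929024 and 60441515 per library, and transcripts of the mitochondrial genome took between 10.6% and 13.5% of them. LINC01977 itself was close to undetected, with counts of 4, 0 and 16 in shNC libraries and 0, 0 and 4 in shLINC01977 libraries, so its reduction was not detectable at this depth (log2 fold change -2.12, SE 1.96, adjusted p = 0.58 by edgeR). Of 12 hepatocyte markers, 8 fell, including albumin (log2 fold change -1.09), and 1 rose (APOA2, 0.42) at an adjusted p under 0.05 by edgeR. That is 75%, beside 15.1% of all tested genes. Their summed level went from 6040 to 6430 FPKM in shNC libraries to 4990 to 5110 FPKM in shLINC01977 libraries. Among markers of other cells, the 3 leukocyte markers in the table summed to 631 to 640 FPKM and then 555 to 571 FPKM, nearly all of it LYZ (log2 fold change -0.27, adjusted p = 0.00537 by edgeR). CD74 moved the other way (0.55, adjusted p = 0.00153), and PTPRC was near 0. The 4 mesenchymal markers summed to 2.33 to 3.63 FPKM and then 3.99 to 5.78 FPKM, nearly all of it COL1A1 (log2 fold change 0.73, adjusted p = 0.0504 by edgeR), while VIM went from a mean of 0.181 to 0.0615 FPKM. The 3 endothelial markers summed to at most 0.441 FPKM in any library. The part of these shifts in the results below was not tested. In bulk RNA, fewer cells of a kind and less RNA per cell cannot be told apart.

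Most changes of the mitochondrial ribosomal protein genes were small. Under shLINC01977, 3 of the 78 rose and 4 fell at an adjusted p under 0.05 (edgeR's quasi-likelihood test on counts, Benjamini-Hochberg adjustment over all 13452 genes). That is 8.97% of the members. Over all tested genes 15.1% passed, 7.05% higher and 8.07% lower. At an unadjusted p under 0.05 there were 26 members (9 higher and 17 lower), or 33.3%, beside 30.5% of all tested genes. DESeq2 called 13 members (16.7%, beside 21.1% of all tested genes). The genes that rose were MRPL11, MRPL24 and MRPL13. The genes that fell were MRPL34, MRPL51, MRPL27 and MRPL50. All 7 encode proteins of the large subunit, which is 13.7% of its 51 members, beside 15.1% of all tested genes. At an unadjusted p under 0.05 there were 16 large-subunit members (31.4%). Of the 26 small-subunit members none passed with edgeR under TMM, although 9 had an unadjusted p under 0.05 (4 higher and 5 lower), or 34.6%, near the 30.5% of all tested genes. Other settings of edgeR called some of them. Library totals called 3 (MRPS7, MRPS10 and MRPS23), beside 16.5% of all tested genes. Upper quartile scaling called 1 (MRPS10, beside 15.6%), a mean FPKM of at least 1 called 1 (MRPS10, beside 17.2%) and a length offset called 1 (MRPS5, beside 16.7%). DESeq2 called 1 (MRPS10, beside 21.1%) and limma on log2(FPKM + 0.1) called 2 (MRPS10 and MRPS31, beside 14.9%). The difference between the subunits was not tested.

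The median log2 fold change of the members was -0.07, with quartiles of -0.18 and 0.07, beside a median of -0.001 over all tested genes. A total of 31 members had a positive and 47 a negative fold change. Within 0.5 of 0 on the log2 scale lay 75 of 78 members, beside 11475 of all 13452 tested genes. For 67 members (85.9%) the 95% interval of the fold change lay wholly within a 1.5-fold change either way, against 59.7% of all tested genes. Without genes whose libraries differed by 1.5-fold or more within a group, the shares were 94.4% and 77.5%. The members also had a higher median level (15.4 against 4.14 FPKM) and a smaller median SE (0.0793 against 0.111). The part of the level in these shares was not tested. Libraries were also counted instead of fitted values. In TMM-scaled CPM the groups did not overlap in 12 members that were higher (15.4%, beside 18.8% of all tested genes) and in 20 that were lower (25.6%, beside 18.3%). The numbers in each direction depended on the scaling. In the deposited FPKM, lower members such as MRPL41, MRPL15, MRPS26 and MRPL28 overlapped, while MRPS30, MRPL22, MRPS18B and MRPS16 came apart as higher. More members were then apart as higher than as lower. Only 1 member, MRPL34, passed a fold change of 2 with an unadjusted p under 0.05, a rule that 2.6% of tested genes passed.

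**Figure D1:**
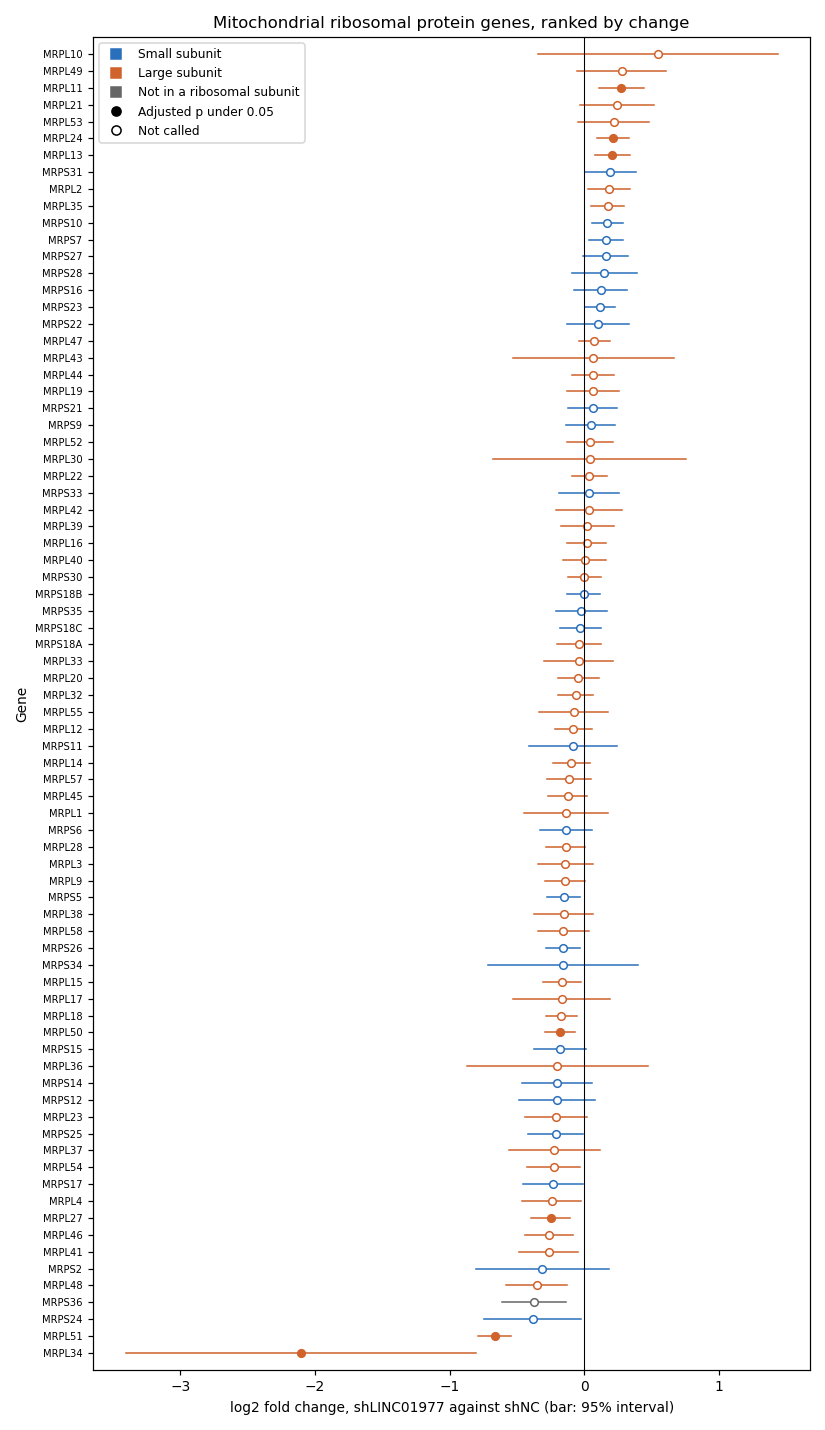
The log2 fold change of each of the 78 genes (x axis, shLINC01977 against shNC, bars for the 95% interval) is plotted for each gene (y axis) and ordered by size. Colour gives the subunit, and the 7 filled points passed an adjusted p under 0.05. Most points lie within 0.5 of 0, MRPL34 stands far to the left with a wide interval, and MRPL51 stands apart with a narrow one.

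The summed level of the members was nearly the same in both groups in FPKM. It was 1590, 1585 and 1656 FPKM in shNC libraries and 1611, 1570 and 1619 FPKM in shLINC01977 libraries, a ratio of means of 0.994. The groups overlapped in this sum. In TMM-scaled CPM, the scaling of the test, they came apart. The sum was then 4459, 4334 and 4511 CPM in shNC libraries and 4325, 4266 and 4253 CPM in shLINC01977 libraries, a ratio of 0.965. Without MRPL34 the groups overlapped in this scaling too (4426, 4303 and 4503 CPM against 4319, 4262 and 4247 CPM). The small-subunit and the large-subunit genes, summed apart, also overlapped in CPM. As a share of all counts, the members took 0.432% ± 0.011 in shNC libraries and 0.436% ± 0.0054 in shLINC01977 libraries (SD, n = 3). The small-subunit genes summed to 494 ± 26.6 FPKM and 504 ± 11.2 FPKM, and the large-subunit genes to 1105 ± 12.3 FPKM and 1087 ± 26.8 FPKM (SD, n = 3 each).

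Levels between genes are compared in FPKM, which is per length. The median member stood at 15.4 FPKM, against 4.14 FPKM over all tested genes, and 76 of 78 members lay above that. The members with the highest mean over the 6 libraries were MRPL12 (94.3 FPKM in shNC and 93.3 FPKM in shLINC01977), whose protein forms the flexible stalk where translation factors bind, MRPL14 (65.3 and 63.9 FPKM) and MRPL45 (64.4 and 61.7 FPKM), which lies near the exit of the peptide tunnel. The lowest by that mean were MRPL42 (2.58 and 2.76 FPKM), MRPL43 (3.2 and 3.51 FPKM) and MRPL48 (4.72 and 3.86 FPKM). Between the ends the level differed by 35.2-fold. None of these 6 passed the test. In shLINC01977 libraries alone MRPL34, described below, was the lowest (2.72 FPKM). Of the 6, MRPL48 came closest to the threshold, with a log2 fold change of -0.35 (SE 0.0952, adjusted p = 0.052 by edgeR).

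**Figure D2:**
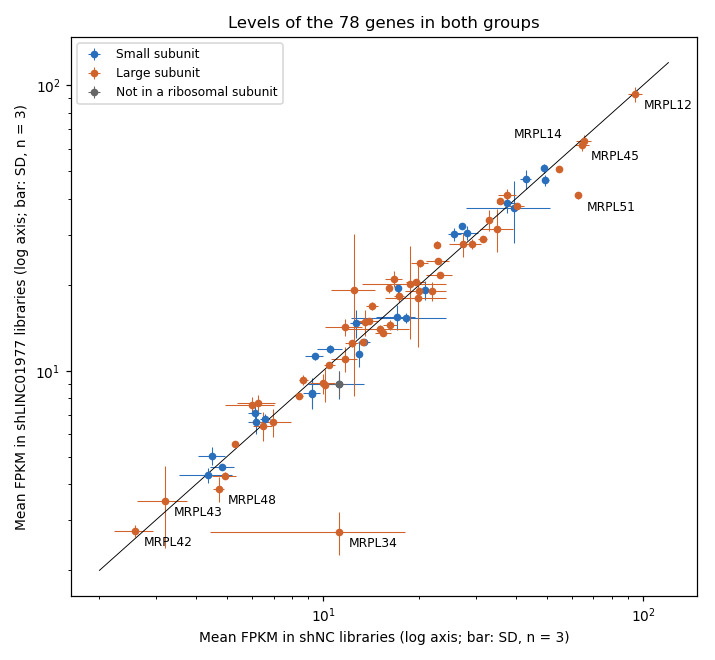
The mean FPKM of each of the 78 genes in shNC libraries (x axis, log scale) is plotted against that in shLINC01977 libraries (y axis, log scale), with bars for the SD over 3 libraries and a line of equality. Most points run close to the line from MRPL42 to MRPL12. MRPL34, with a wide SD in shNC, and MRPL51 lie below it, and MRPL10 (12.5 and 19.2 FPKM), with a wide SD in shLINC01977, lies above it.

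Sequence just before a RefSeq transcription start is shown for 6 of the 7 called members, since promoters of mitochondrial protein genes often carry short motifs of ETS factors, NRF1 and YY1. The windows are those of RefSeq on GRCh38, from 250 bases before to 50 bases after each start, read on the gene's strand. Of 78 members, 69 were matched by symbol, with 85 windows. Of the called members, MRPL13 was not among them. The capitals mark letters of a searched motif on either strand. The stretches for MRPL51, MRPL27 and MRPL24 are the 30 bases around their motifs. All 30 bases for MRPL51 and for MRPL27, and 9 for MRPL24, are exonic in GENCODE 29. Each stretch lies before a RefSeq start, but all except that of MRPL50 lie inside the gene's span in the table, and that of MRPL51 also in NCAPD2. Those for MRPL50, MRPL34 and MRPL11 are the 150 bases before a start.
MRPL51, chr12:6493356-6493385, minus strand: aaaaCTTCCGGcaggcggaCCGGAAGcact
MRPL27, chr17:50373185-50373214, minus strand: cggaagtagaaacttttcgagaCCGGAAGt
MRPL24, chr1:156741123-156741152, minus strand: tacacttggacTACAACTCCcagaaagtcg
MRPL50, chr9:101398619-101398768, minus strand: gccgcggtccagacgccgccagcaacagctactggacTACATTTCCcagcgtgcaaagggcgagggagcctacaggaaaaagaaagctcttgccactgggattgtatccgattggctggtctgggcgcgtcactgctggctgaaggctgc
MRPL34, start 3 of 4, chr19:17305503-17305652, plus strand: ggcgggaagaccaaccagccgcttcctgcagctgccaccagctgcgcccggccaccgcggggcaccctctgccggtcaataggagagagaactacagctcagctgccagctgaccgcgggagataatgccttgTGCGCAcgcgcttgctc
MRPL11, chr11:66438849-66438998, minus strand: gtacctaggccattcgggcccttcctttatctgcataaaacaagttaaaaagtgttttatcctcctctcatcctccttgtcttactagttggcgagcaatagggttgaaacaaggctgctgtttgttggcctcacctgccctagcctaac
MRPL51 shows the ETS-type letters on both strands, MRPL27 shows them next to its start, and MRPL24 and MRPL50 show the TACANNTCC letters. The MRPL11 stretch holds none of the searched letters.

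Over the 85 member windows, the ETS-type letters CCGGAAG were present in 33 (38.8%), against 10.3% of all 35116 RefSeq windows of the same length. The NRF1-type letters TGCGCA were in 17 (20%, against 8.24%), the YY1-type letters AAGATGGCG in 13 (15.3%, against 1.75%) and TACANNTCC in 11 (12.9%, against 3.84%). TATAAA was in 3 (3.53%, against 11.5%) and the E-box CACGTG in 9 (10.6%, against 7.26%). Both strands were searched, TGCGCA and CACGTG read alike on both, and a window may hold several motifs. The windows of all genes include those of noncoding RNAs. By gene, 30 of the 69 matched members held the ETS-type, 15 the NRF1-type, 13 the YY1-type and 9 the TACANNTCC letters. Of the 9 windows of the 6 called genes that were matched, 2 held the ETS-type, 2 the NRF1-type, 1 the YY1-type and 4 the TACANNTCC letters. Windows of a gene can overlap, and MRPL34 has 4 of the 9. Its printed TGCGCA lies in the windows of starts 17305653 and 17305872, so both NRF1-type windows hold the same site. A match is a match of letters and not a measured binding site.

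MRPL51 gave the steadiest change. Its protein is a mitochondria-specific part of the large subunit with no bacterial counterpart. Its normalised counts (CPM, the count scaled to library size by TMM) were 125, 121 and 120.1 in shNC libraries and 79.3, 77.9 and 73.7 in shLINC01977 libraries. The groups were far apart and the spread within each was small. The level was thus 1.59-fold lower under shLINC01977, with a log2 fold change of -0.67 (SE 0.0509, adjusted p = 0.00105 by edgeR). In FPKM the values were 63.2, 62.2 and 61.9 against 42.4, 41.1 and 40.0. MRPL51 was the only member called under all 19 alternative analyses, including each library left out in turn, with a log2 fold change between -0.71 and -0.59 and an adjusted p between 7.7e-22 and 0.00986. It lies on chromosome 12 (6491886 to 6493841, minus strand, GRCh38) and overlaps NCAPD2, a condensin subunit on the other strand. The strand setting of the counts is not given in the sources used here, so reads of the pair may not be fully separated. NCAPD2 stood at 185, 199 and 172 CPM and then 209, 214 and 208 CPM (log2 fold change 0.18, adjusted p = 0.0957 by edgeR), opposite in sign to MRPL51.

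MRPL34 had the largest fold change among the members and also one of the widest spreads. It is homologous to a small bacterial large-subunit protein. Its counts were 1811, 1550 and 420 in shNC libraries and 351, 279 and 294 in shLINC01977 libraries, or 33.3, 31.4 and 7.14 CPM against 6.38, 4.58 and 5.71 CPM. The groups did not overlap, but the third shNC library lay close to the shLINC01977 libraries and far from the other two shNC libraries. The log2 fold change was -2.11 (SE 0.545, adjusted p = 0.0463 by edgeR), a 4.31-fold lower level. Leaving libraries out or changing the setting moved it between -2.54 and -1.497, and it was called in 9 of 19 alternatives. Of the analyses that left out 1 library, only the one without the third shNC library called it. The deposited FPKM followed the counts (15.5, 14.9 and 3.37 against 3.13, 2.21 and 2.83). ABHD8, which overlaps MRPL34 on the other strand, did not follow it (log2 fold change -0.05, adjusted p = 0.871 by edgeR). RefSeq lists 4 starts of MRPL34, from position 17292573 to 17305872 on chromosome 19.

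MRPL27 and MRPL50 fell by less. MRPL27, a homologue of a bacterial protein that reaches toward the peptidyl transferase centre, stood at 60.5, 54.9 and 61.0 CPM in shNC libraries and at 49.1, 49.99 and 49.2 CPM in shLINC01977 libraries (log2 fold change -0.25, SE 0.0608, adjusted p = 0.0375 by edgeR). MRPL50, a mitochondria-specific protein, stood at 135, 127 and 135 CPM and then at 115, 117 and 117 CPM (log2 fold change -0.18, SE 0.0469, adjusted p = 0.0453 by edgeR). The groups were apart in both genes, and the fitted level fell by 16.0% in MRPL27 and by 11.9% in MRPL50. MRPL27 was called in 7 and MRPL50 in 6 of 19 alternatives. With 1 library left out, MRPL27 was called only without the second shNC library, and MRPL50 in none of these analyses.

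Of the genes that rose, MRPL11 encodes the protein at the base of the stalk. It stood at 51.3, 56.6 and 51.5 CPM in shNC libraries and at 60.7, 64.3 and 68.0 CPM in shLINC01977 libraries (log2 fold change 0.28, SE 0.0696, adjusted p = 0.0425 by edgeR). MRPL24 stood at 49.8, 47.8 and 48.4 CPM and then at 57.1, 55.4 and 56.9 CPM (log2 fold change 0.21, SE 0.0506, adjusted p = 0.0347). MRPL13 stood at 88.3, 83.3 and 84.2 CPM and then at 95.2, 103 and 97.1 CPM (log2 fold change 0.21, SE 0.0549, adjusted p = 0.0487). The groups were apart in all 3 genes, which have bacterial homologues. They were called in 10, 9 and 8 of 19 alternatives, and with 1 library left out only MRPL11 was called, without the second shNC library. For each of the 7 called members the exact two-sided permutation test gave p = 0.1, the smallest that 3 libraries against 3 can give.

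**Figure D3:**
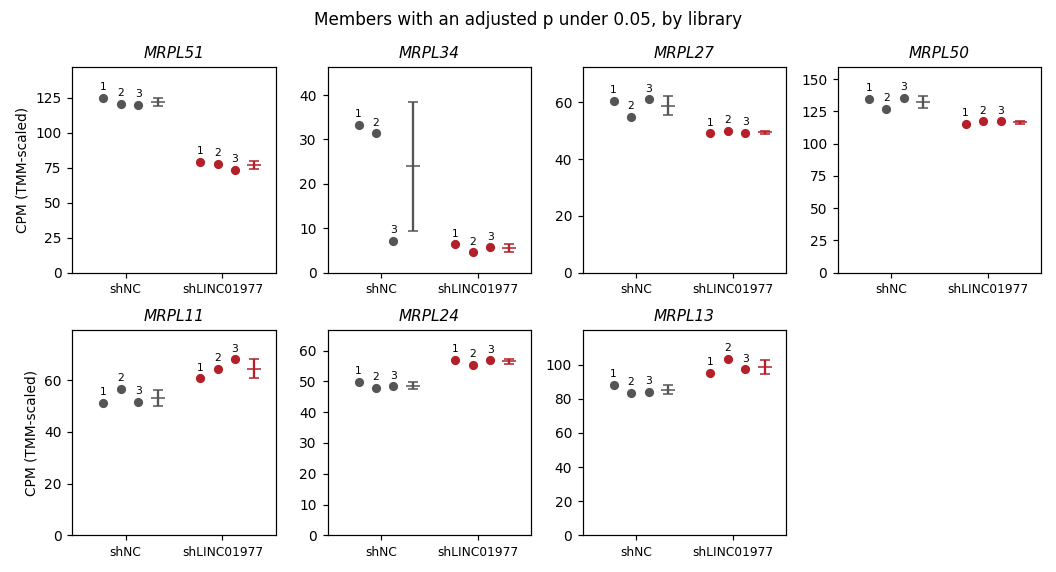
TMM-scaled CPM (y axis, from 0) of the 7 called genes in each library (points, numbered by replicate) of shNC in grey and shLINC01977 in red (x axis), with the mean and SD of 3 libraries beside them. The groups do not overlap in any panel. In MRPL34 the third shNC library, at 7.14 CPM, lies near the shLINC01977 libraries.

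Several members just missed the threshold. By edgeR, MRPS36 (log2 fold change -0.38, adjusted p = 0.0507), MRPL48, MRPL18 (-0.17, 0.0567) and MRPL46 (-0.26, 0.063) had lower and MRPS10 (0.17, 0.0585) and MRPL35 (0.17, 0.0675) had higher values. DESeq2 called all 6, and MRPL48 was called in 3 of 19 alternatives. These 6 were picked for their place at the threshold. The 3 paralogues MRPS18A, MRPS18B and MRPS18C, which occupy different places in the ribosome, had near-zero values (log2 fold changes -0.04, -0.01 and -0.03; adjusted p = 0.755, 0.954 and 0.804 by edgeR), and each took a positive sign when libraries were scaled by their totals. Their 95% intervals lay between -0.20 and 0.13. Members with a bacterial homologue (48) had a median log2 fold change of -0.07, with 3 higher and 2 lower at the threshold (10.4%). The mitochondria-specific members (29) had a median of -0.02, with none higher and 2 lower (6.9%). Over all tested genes the share was 15.1%.

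In 7 members the libraries of one group differed among themselves by 1.5-fold or more (8.97%, against 25.4% of all tested genes). MRPL34 is described above. MRPL10 stood at 51.7, 37.3 and 42.1 CPM in shNC libraries but at 106, 42.4 and 42.9 CPM in shLINC01977 libraries, where only the first was high (log2 fold change 0.55, SE 0.372, adjusted p = 0.368 by edgeR). This was the highest fold change among the members, and it was -0.03 without that library. MRPL36 stood at 27.3, 41.7 and 35.6 CPM and then at 35.4, 37.1 and 18.5 CPM, with the third shLINC01977 library low and a 1.53-fold spread also within shNC. MRPS2, a protein of the small subunit, stood at 46.8, 45.2 and 77.5 CPM and then at 47.6, 44.6 and 44.5 CPM, with the third shNC library high.

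The other 3 of these genes shared a library or showed no order. MRPS34 stood at 45.6, 45.6 and 72.6 CPM and then at 44.4, 40.6 and 61.8 CPM, so that the third library was high in both groups. MRPL30 stood at 90.1, 48.7 and 67.0 CPM and then at 99.8, 55.5 and 56.4 CPM, so that the first library was highest in both groups. MRPL43 stood at 13.8, 17.3 and 12.3 CPM and then at 16.2, 10.1 and 19.2 CPM. In all of these genes but MRPL34 the groups overlapped, and those 6 had an adjusted p between 0.355 and 0.945 by edgeR. The deposited FPKM showed the same libraries high or low. Of the 7 genes 4 overlap another listed gene, as do 42 of the other 71. The part of these overlaps was not tested.

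**Figure D4:**
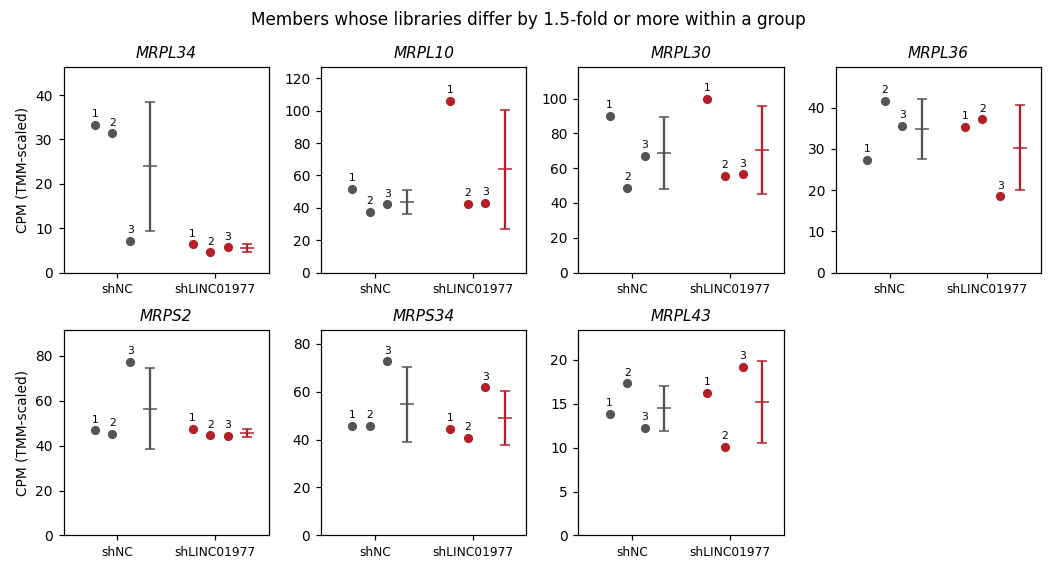
TMM-scaled CPM (y axis, from 0) of the 7 genes whose libraries differ by 1.5-fold or more within a group, in each library (points, numbered by replicate) of shNC in grey and shLINC01977 in red (x axis), with the mean and SD of 3 libraries beside them. A single library stands apart in MRPL34, MRPL10 and MRPS2, and MRPL36 varies in both groups. The third library is high in both groups in MRPS34, and the first is highest in both groups in MRPL30.

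The RNA that these proteins bind was read from the same libraries. MT-RNR1, the 12S rRNA of the small subunit, fell. It stood at 2262, 2685 and 2215 CPM in shNC libraries and at 1578, 1744 and 1465 CPM in shLINC01977 libraries (log2 fold change -0.58, SE 0.0936, adjusted p = 0.00952 by edgeR), with no overlap, and it was called in all 18 alternatives that kept genes of the mitochondrial genome. MT-RNR2, the 16S rRNA of the large subunit, stood between 13400 and 14160 CPM in shNC libraries and between 11670 and 14310 CPM in shLINC01977 libraries, and the groups overlapped (log2 fold change -0.11, adjusted p = 0.384). The difference between both rRNAs was not tested. How ribosomal RNA was depleted or RNA selected is not given in the sources used here, so the level of either rRNA may depend on the library preparation. None of the ribosomal proteins with other names, 6 in the table, passed the test, beside 15.1% of all tested genes. These are DAP3, PTCD3, CHCHD1 and AURKAIP1 of the small subunit, GADD45GIP1 of the large subunit, and NDUFAB1, an acyl carrier protein found beside the large subunit. Their log2 fold changes were between -0.13 and -0.01 under edgeR with TMM. None had an unadjusted p under 0.05, beside 30.5% of all tested genes, and no alternative called any of them. AURKAIP1 and PTCD3 turned positive with library totals.

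Among 29 factors of ribosome assembly and rRNA maturation, 2 rose and 2 fell, or 13.8%, a share near the 15.1% of all tested genes. NSUN4, an rRNA methyltransferase that takes part in subunit joining, rose from 21.3, 20.2 and 18.7 CPM to 29.4, 27.5 and 31.3 CPM (log2 fold change 0.55, SE 0.0857, adjusted p = 0.00858 by edgeR). TFB1M, the dimethyltransferase of 12S rRNA, rose from 85.1, 90.5 and 79.7 CPM to 109, 114 and 99.5 CPM (0.33, SE 0.0731, adjusted p = 0.0269). NOA1, a GTPase of mitochondrial ribosome assembly, fell from 42.8, 41.3 and 42.0 CPM to 31.3, 30.6 and 30.4 CPM (-0.45, SE 0.0542, adjusted p = 0.0035). RBFA, a factor of small-subunit maturation, fell from 34.5, 32.3 and 32.1 CPM to 28.5, 27.8 and 27.0 CPM (-0.25, SE 0.0642, adjusted p = 0.0461). NSUN4 and NOA1 were called in all 19 alternatives, TFB1M in 14 and RBFA in 6. With 1 library left out, TFB1M was called only without the second shNC or the third shLINC01977 library, and RBFA in no case. The groups did not overlap in these 4 genes.

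Of 15 translation factors, 1 rose and 2 fell (20%, beside 15.1% of all tested genes). At an unadjusted p under 0.05 the share was also 20%, beside 30.5%. GFM2, the elongation factor that recycles ribosomes, had a log2 fold change of 0.31 (adjusted p = 0.0323 by edgeR). MTRF1L, a release factor, had -0.35 (adjusted p = 0.0381) and OXA1L, the insertase that receives the nascent chain, had -0.17 (adjusted p = 0.0418). With 1 library left out, GFM2 was called only without the third shNC library, and MTRF1L and OXA1L in no case. None of 15 genes of mitochondrial transcription and RNA handling passed with edgeR, among them TFAM and POLRMT, although 3 had an unadjusted p under 0.05.

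Of 12 regulators of mitochondrial genes, 2 fell (16.7%, near the 15.1% of all tested genes). PPARGC1A, a coactivator of mitochondrial biogenesis, stood at 16.2, 18.5 and 17.3 CPM in shNC libraries and at 8.05, 9.68 and 7.96 CPM in shLINC01977 libraries (log2 fold change -1.02, SE 0.115, adjusted p = 0.00287 by edgeR). It was called in all 18 alternatives that kept it, with log2 fold changes from -1.12 to -0.46, the smallest with limma on log2(FPKM + 1), and it lay below the filter of a mean FPKM of at least 1. ESRRA, a nuclear receptor that works with it, stood at 28.0, 27.8 and 32.7 CPM and then at 18.4, 24.4 and 20.1 CPM (-0.49, SE 0.127, adjusted p = 0.045), and was called in 7 of 19 alternatives, of those with 1 library left out only without the second shLINC01977 library. NRF1, GABPA, YY1 and PPRC1 had log2 fold changes of 0.14, 0.03, -0.01 and -0.14, none of which passed, and YY1 turned positive with library totals. MYC stood at 173, 177 and 170 CPM and then at 159, 161 and 7.24 CPM, so that its mean was set by the third shLINC01977 library (log2 fold change -0.67, SE 0.889, adjusted p = 0.659).

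**Figure D5:**
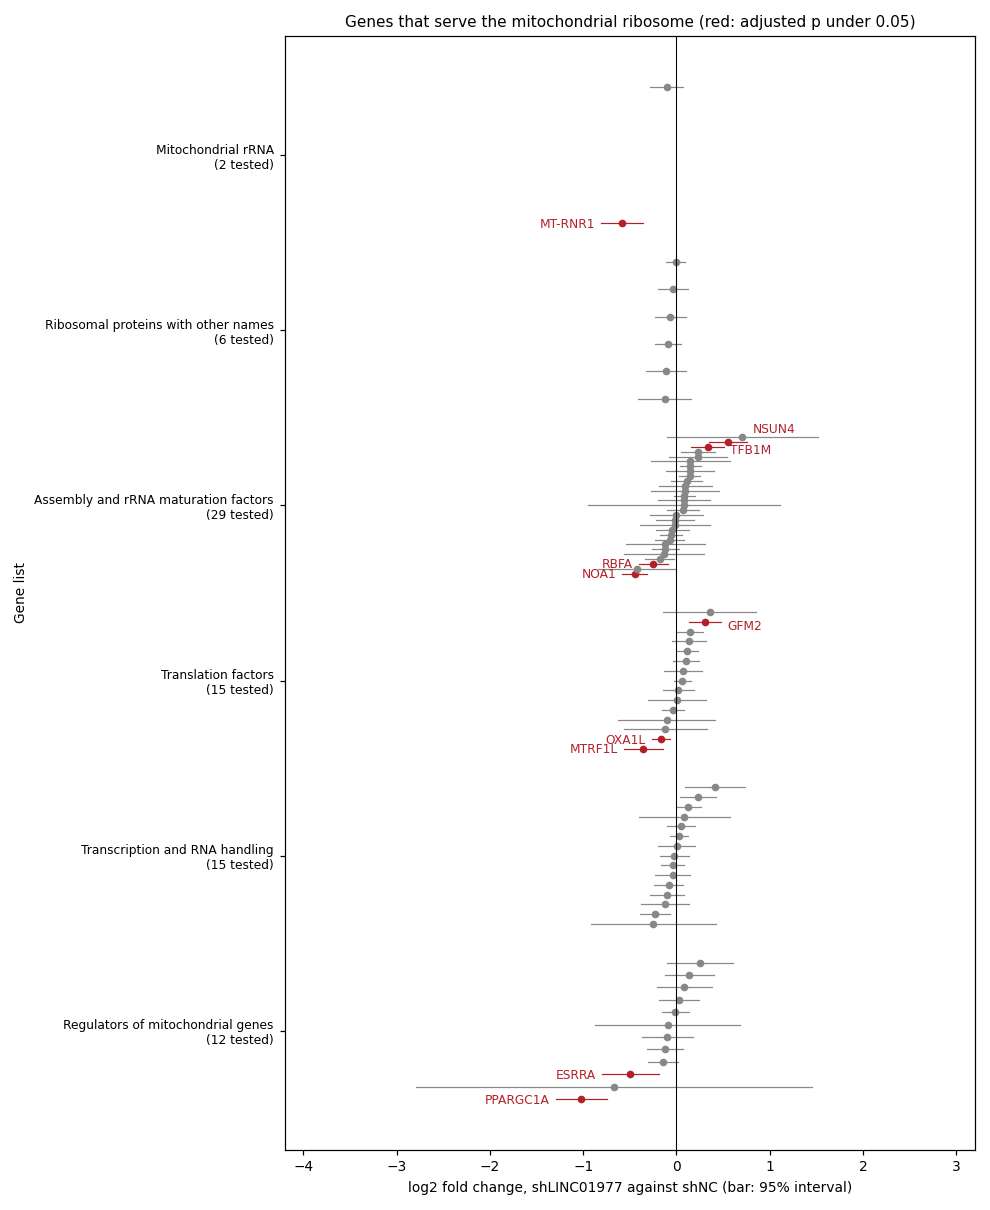
The log2 fold change (x axis, bars for the 95% interval) of genes in 6 lists that serve the mitochondrial ribosome (y axis), with genes at an adjusted p under 0.05 in red and named. MT-RNR1, NOA1 and PPARGC1A lie to the left of 0, and NSUN4 and TFB1M to the right.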

How the data were processed

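The authors extracted RNA with TRIzol and had Illumina libraries sequenced. Their processing notes name bcl2fastq 2.0, HISAT2, StringTie, DESeq2 and limma, with no roles, and build hg38. Raw counts per gene were deposited as whole numbers. The deposited FPKM are scaled by the authors to transcript length and library total. The counting tool, annotation and strand setting are not given in the sources used here. Coordinates are those of the table, and 77 of 78 members have the same start and end in GENCODE 29.

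The test was edgeR 4.0.16 (quasi-likelihood, TMM, Benjamini-Hochberg; R 4.3.3) on counts of the 13452 genes whose mean FPKM reached 0.5, with SE taken as the fold change divided by the root of the F value. The test was tried on simulated data. Alternatives were other scalings (DESeq2 size factors, upper quartile, library totals), filters, limma 3.58.1 on log2(FPKM + 0.1) or log2(FPKM + 1), DESeq2 1.42.0, no mitochondrial genome, counts divided by 4, a length offset, a replicate block and each library left out. Members and lists were chosen with earlier results of these data known. Named genes were called members with groups apart, the 3 highest and 3 lowest by FPKM, the MRPS18 paralogues, up to 3 called genes per list and direction, and single regulators. The genes with a wide spread within a group, and those just outside the threshold, were chosen after their values were seen. A further list of companion genes is not reported here. Transcription starts came from RefSeq (GRCh38).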

Additional observations from a re-analysis of the deposited data

How the results depend on the processing

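Members called higher and lower numbered 3 and 4. They were 5 and 2 with upper quartile scaling, 8 and 2 with library totals, 0 and 1 with no filter, 7 and 1 with limma at either pseudocount, 5 and 8 with DESeq2 and 0 and 9 with the length offset. All tested genes shifted too, from 948 higher and 1085 lower calls to 1455 and 768 with library totals, 1269 and 729 with limma on log2(FPKM + 0.1) and 693 and 1558 with the length offset, while DESeq2 called 21.1% of them and the fit with no filter 5.36%. With 1 library left out, 0 to 1 members were called higher and 1 to 2 lower (1.28% to 3.85%, beside 8.74% to 10.4% of all tested genes). The labels do not say whether the replicate numbers pair the libraries. Deviations from the group mean were little correlated between libraries of the same number (-0.032, 0.004 and 0.063). These correlations run over all tested genes, so they cannot exclude a pairing that shows in few genes. The replicate block left 0 higher and 1 lower (beside 10.3% of all tested genes), as did the block with the length offset. The median log2 fold change, -0.07, was -0.041 with upper quartile scaling, -0.0058 with library totals, -0.0031 and -0.0038 with limma, -0.1022 with the length offset, -0.1018 with the replicate block and length offset, and -0.0761 to -0.0305 with 1 library left out (-0.0305 without the third shNC library). It stayed below that of all genes under all 19 alternatives. The summed level, -0.0093 in log2 FPKM, was 0.0144 as a share of counts and -0.0508 in TMM-scaled CPM, the latter an alternative chosen after seeing the data. Alternatives on the overlap of groups were also chosen then. In the deposited FPKM more members were apart as higher than as lower, the reverse of TMM-scaled CPM. The share of all tested genes apart in FPKM was not counted, so this reversal cannot be read as particular to the members.

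Some genes that were not called changed sign. With library totals AURKAIP1 was 0.0287, MRPS18A 0.0288, MRPS18B 0.0594, MRPS18C 0.0369, PTCD3 0.0592 and YY1 0.0523. With limma on log2(FPKM + 0.1) and log2(FPKM + 1) they were 0.0292 and 0.0281, 0.0236 and 0.0231, 0.0567 and 0.0557, 0.0354 and 0.0313, 0.0564 and 0.0527, and 0.0527 and 0.0481. With upper quartile scaling MRPS18B was 0.0249, MRPS18C 0.002, PTCD3 0.0241 and YY1 0.0185. With a mean FPKM of at least 1, MRPS18B was 0.0016 and PTCD3 8e-04. With the length offset GABPA was -0.037, MRPL30 -0.011 and MRPL42 -0.0515, and with the replicate block and length offset GABPA was -0.0339, MRPL30 -0.0183, MRPL42 -0.0463 and MRPL43 -0.0237. With 1 library left out, values ran from -0.0817 to 0.0247 for AURKAIP1, -0.0355 to 0.0912 for GABPA, -0.0335 to 0.7711 for MRPL10 (lowest without the first shLINC01977 library), -0.2925 to 0.287 for MRPL30, -0.3716 to 0.0573 for MRPL36 (highest without the third shLINC01977 library), -0.026 to 0.1498 for MRPL42, -0.1373 to 0.2919 for MRPL43, -0.0828 to 0.0212 for MRPS18A, -0.0434 to 0.0267 for MRPS18B, -0.0641 to 0.0073 for MRPS18C, -0.3614 to 0.1035 for MRPS34 (highest without the third shNC library), -0.0246 to 0.0161 for PTCD3 and -0.0552 to 0.0364 for YY1. None of these genes was called under any alternative. The causes of these differences between alternatives were not tested. Genes at 3 counts or fewer in a library, such as LINC01977, cannot be read at this depth.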

Other observations

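Of the 13 genes that are named like members but are not, 4 passed the filter. MRPS31P5, a pseudogene of MRPS31 on chromosome 13, had counts of 483, 493 and 529 in shNC libraries and 776, 828 and 561 in shLINC01977 libraries, with no overlap between the groups (log2 fold change 0.47, SE 0.129, adjusted p = 0.0552 by edgeR). MRPS31P4 had a log2 fold change of 0.30 (adjusted p = 0.335), MRPL45P2 0.08 (adjusted p = 0.711) and the antisense gene MRPL23-AS1 0.23 (adjusted p = 0.231). MRPS31 itself had 0.19 (adjusted p = 0.157). Reads that a pseudogene shares with its parent gene could be counted for either.

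Of the 7 tested genes that overlap a called member or one with a wide spread, 2 passed the test, beside 15.1% of all tested genes. SEMA4G, which overlaps MRPL43 and encodes a semaphorin, fell from 119, 119 and 125 CPM to 73.9, 71.2 and 71.9 CPM (log2 fold change -0.74, SE 0.0479, adjusted p = 0.000674 by edgeR), while TWNK, the mitochondrial DNA helicase at the same locus, had a log2 fold change of 0.01 (adjusted p = 0.97). C9orf116, which overlaps MRPS2, rose from 2.64, 2.76 and 3.18 CPM to 4.54, 4.37 and 4.74 CPM (0.67, SE 0.147, adjusted p = 0.0273). MRPS12 and SARS2, which overlap each other on chromosome 19, both had log2 fold changes of -0.20 (adjusted p = 0.297 and 0.303). These genes were chosen after their values were seen.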
